A study of Mus musculus with 6 samples.

Results

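Cadherins and non-clustered protocadherins were examined in cortex RNA from newborn mice: every gene of the deposited table named Cdh or Pcdh followed by a number (or by a number and x), leaving out Cdh5, which is the cadherin of vessel endothelium. The rule took 33 of the 23621 genes in the table, 21 cadherins and 12 protocadherins, and used no measured value. Cadherins are calcium-dependent adhesion proteins that bind the same or related cadherins on the next cell and hold the actin cytoskeleton through catenins. In the developing cortex N-cadherin keeps the radial glial scaffold and its junctions together, and combinations of other cadherins and of delta-protocadherins differ between areas, layers and axon tracts.

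RNA came from the whole dissected cortex of 3 Tle4-/- null mutant mice and of 3 wild-type littermates at postnatal day 0, all on a mixed background of the strains C57BL/6J, 129S6 and CD1. Tle4 encodes a Groucho-family transcriptional co-repressor of deep-layer cortical neurons. The deposited counts summed to 18617408 to 21632607 per library. Tle4 itself had 1481, 1659 and 1664 counts in the mutants, against 3884, 3171 and 3091 in the wild types, a log2 fold change of -1.06 (SE 0.14, edgeR adjusted p = 0.0377). The labels do not say which part of the gene the null allele lacks, nor whether samples of a genotype share a litter, so p-values measure the spread between these samples. Xist, the X-inactivation transcript of females, had 66194 to 79080 counts in the mutants and 11 to 37 in the wild types, so sex and genotype cannot be told apart here. Ddx3y, a Y-linked gene, had 1, 0 and 2 counts in the mutants, against 1463, 1891 and 2 in the wild types, so wild-type replicate 3 nearly lacked both transcripts. In whole tissue, fewer cells of a type and less RNA per cell cannot be told apart either.

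Not all 33 are classical cadherins, and they were described in 6 classes. The type I class (Cdh1, Cdh2, Cdh3, Cdh4 and Cdh15) and the type II class (Cdh6 to Cdh12, Cdh18, Cdh19, Cdh20, Cdh22 and Cdh24) are the classical ones, which bind catenins. The other cadherins are Cdh13, which is held in the membrane by a lipid anchor, Cdh17, Cdh23 and Cdh26. Delta-1 protocadherins are Pcdh1, Pcdh7, Pcdh9 and Pcdh11x, delta-2 protocadherins are Pcdh8, Pcdh10, Pcdh17, Pcdh18 and Pcdh19, and Pcdh12, Pcdh15 and Pcdh20 were kept apart.

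Classical cadherins pair by swapping the first strand of the outermost extracellular repeat between partner cells, with tryptophans of that strand docking into the partner. The coding bases of that strand are shown for the members the results turn on, because type I and type II members differ there. Each line gives the first 36 coding bases after the furin cleavage site, 5′ to 3′ on the coding strand, from GENCODE M21 transcripts on GRCm38, and the capitals mark tryptophan codons.
Cdh4 (type I): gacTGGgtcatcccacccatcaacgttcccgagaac
Cdh9 (type II): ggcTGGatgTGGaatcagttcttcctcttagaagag
Cdh6 (type II): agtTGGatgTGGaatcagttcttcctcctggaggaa
Cdh10 (type II): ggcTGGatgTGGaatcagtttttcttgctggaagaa
Cdh11 (type II): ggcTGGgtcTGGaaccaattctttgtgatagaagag
Cdh24 (type II): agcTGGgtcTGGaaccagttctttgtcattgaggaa
Cdh13 (lipid-anchored): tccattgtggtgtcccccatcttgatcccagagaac

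These lie in coding exons at chr2:179797560-179797595 (plus strand, Cdh4), chr15:16778257-16778292 (plus, Cdh9), chr15:13091683-13091718 (minus, Cdh6), chr15:18899751-18899786 (plus, Cdh10), chr8:102679645-102679680 (minus, Cdh11), chr14:54639377-54639412 (minus, Cdh24) and chr8:118757416-118757451 (plus, Cdh13). A cleavage site was accepted only where tryptophan stood at codon 2, or isoleucine and valine from codon 2 on. What stands at codon 2 was therefore set by the search, and the tryptophan at codon 4 was not. All 12 type II members had 2 tryptophan codons in this window, at codons 2 and 4. All 5 type I members had 1, at codon 2. Of the other cadherins Cdh26 also had 1, at codon 2, and Cdh13 had 0. Cdh9 differed from Cdh6 and from Cdh10 at 6 of the 36 bases each, from Cdh11 at 8, from Cdh24 at 10 and from Cdh4 at 22. A cleavage site that met this rule was not found in Cdh17 and Cdh23.

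In FPKM, which is per length, Cdh2 had the highest level of all members. Cdh2, or N-cadherin, stood at 40.3 ± 1.39 FPKM in the mutants and 44.2 ± 2.82 FPKM in the wild types (SD, n = 3 each). Cdh4, or R-cadherin, came next with 20.1 ± 1.43 FPKM in the mutants and 26.4 ± 7.19 FPKM in the wild types. Over the 6 libraries the mean FPKM then ran down through Cdh11 (19.7), Cdh13 (15.6), Cdh6 (15.4) and Cdh24 (12.9), and 6 members in all reached 10 FPKM. Among protocadherins Pcdh17 was highest at 9.84 FPKM, followed by Pcdh1 (5.85) and Pcdh10 (5.56). In all, 23 members reached a mean of 1 FPKM.

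Of the 32 pairs of neighbours in this order, 2 were separate in every library: Cdh2 above Cdh4, and Cdh8 (9.41 FPKM) above Cdh10 (5.94). The other neighbours overlapped between libraries. The members with the lowest levels were Cdh17, Cdh23, Cdh3, Cdh19 and Cdh26, each at a mean of at most 0.117 FPKM.

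**Figure D1:**
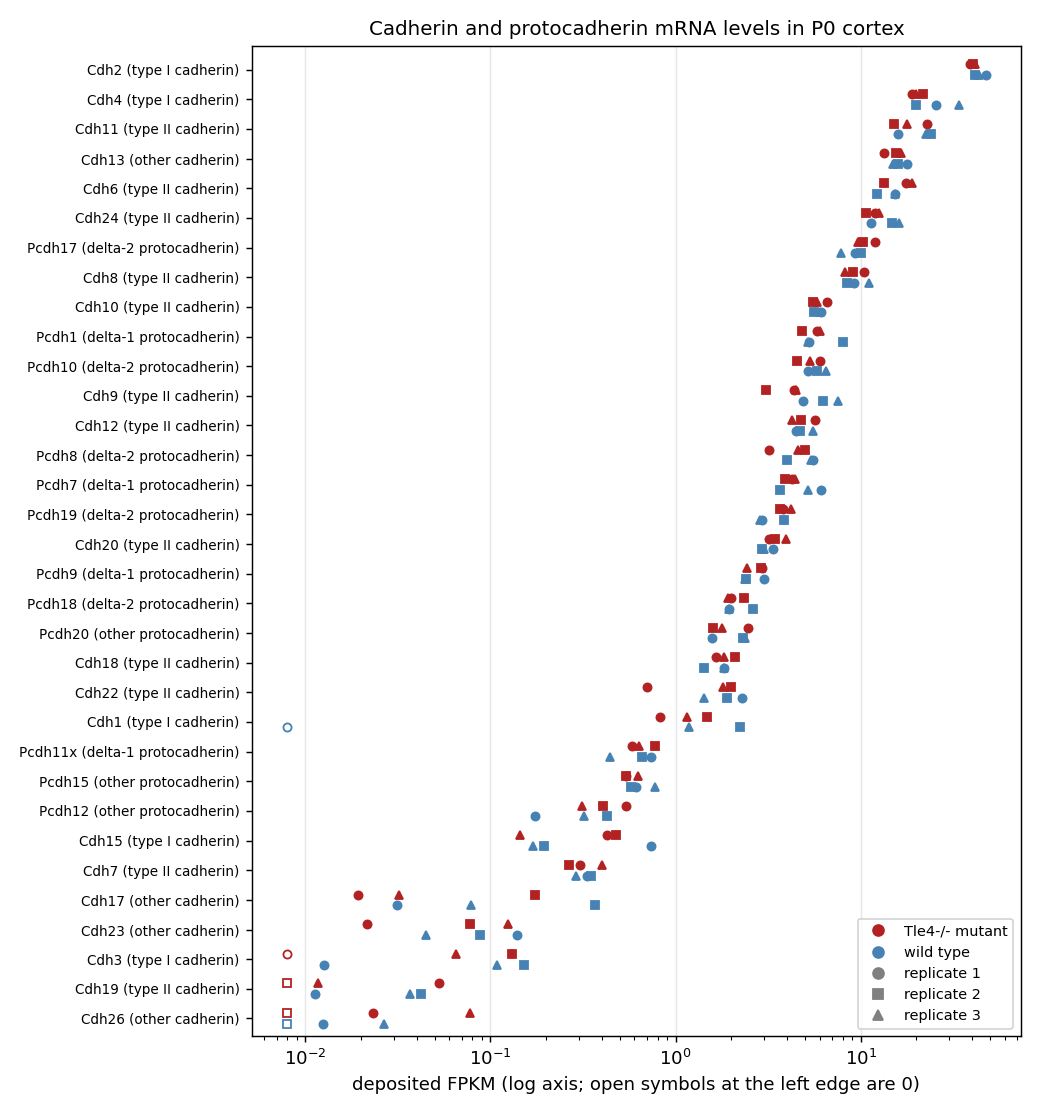
Deposited FPKM of each member (log axis) in the 3 mutant libraries (red, upper in each row) and the 3 wild-type libraries (blue, lower), ordered by the mean of all 6, with a symbol per replicate and open symbols for 0. Cdh2 lies right of every other member, and 23 members reach a mean of 1 FPKM.

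Summed over its members, the type I class had 61.9 ± 2.82 FPKM in the mutants and 72.2 ± 7.69 FPKM in the wild types. The type II class summed to 78.2 ± 8.15 FPKM in the mutants and 82.8 ± 7.88 FPKM in the wild types. Delta-2 protocadherins summed to 26.2 ± 0.666 FPKM in the mutants and 25.2 ± 0.888 FPKM in the wild types, and delta-1 protocadherins to 13.1 ± 0.661 FPKM in the mutants and 14.4 ± 0.995 FPKM in the wild types (SD, n = 3 each throughout). All 33 members together took 0.182% to 0.189% of the counts in the mutants and 0.193% to 0.208% in the wild types, ranges that did not overlap. Without the counts of Cdh2 and Cdh4 the share was 0.126% to 0.136% in the mutants and 0.135% to 0.138% in the wild types. These ranges overlapped only through mutant replicate 1 (0.1355%) and wild-type replicate 1 (0.1351%), and the other mutants lay below every wild type. Neither sum was tested.

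Of the 33, 29 passed the filter on low counts and were tested, and 0 of the 29 differed between the genotypes by edgeR at an adjusted p under 0.05, where 0.111% of the 16274 genes tested did (18 genes). The smallest adjusted p of a member was above 0.99. DESeq2 and limma-voom also called 0 members. At an unadjusted p under 0.05 edgeR gave 1 member higher (1.71% of all genes tested were) and 1 lower (1.73% were). In counts scaled to library size after TMM normalization, the genotypes did not overlap for 1 member higher in the mutant (4.18% of all genes) and 1 lower (3.75%). Each of these counts is 3.45% of the members tested and rests on a single gene, so the counts stand near the background. Below 0 lay 17 of the 29 members, or 58.6%, against 51.3% of all genes, and the median log2 fold change was -0.07 for the members and -0.01 for all genes tested.

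The intervals say how large a difference these libraries leave possible. For 23 of the 29 members the 95% interval of the fold change lay within 2-fold in both directions, and for 18 within 1.5-fold. Intervals that reached 2-fold belonged to Cdh1, Cdh9, Cdh15, Cdh22, Cdh23 and Pcdh12, all but Cdh9 at a mean of fewer than 150 counts.

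**Figure D2:**
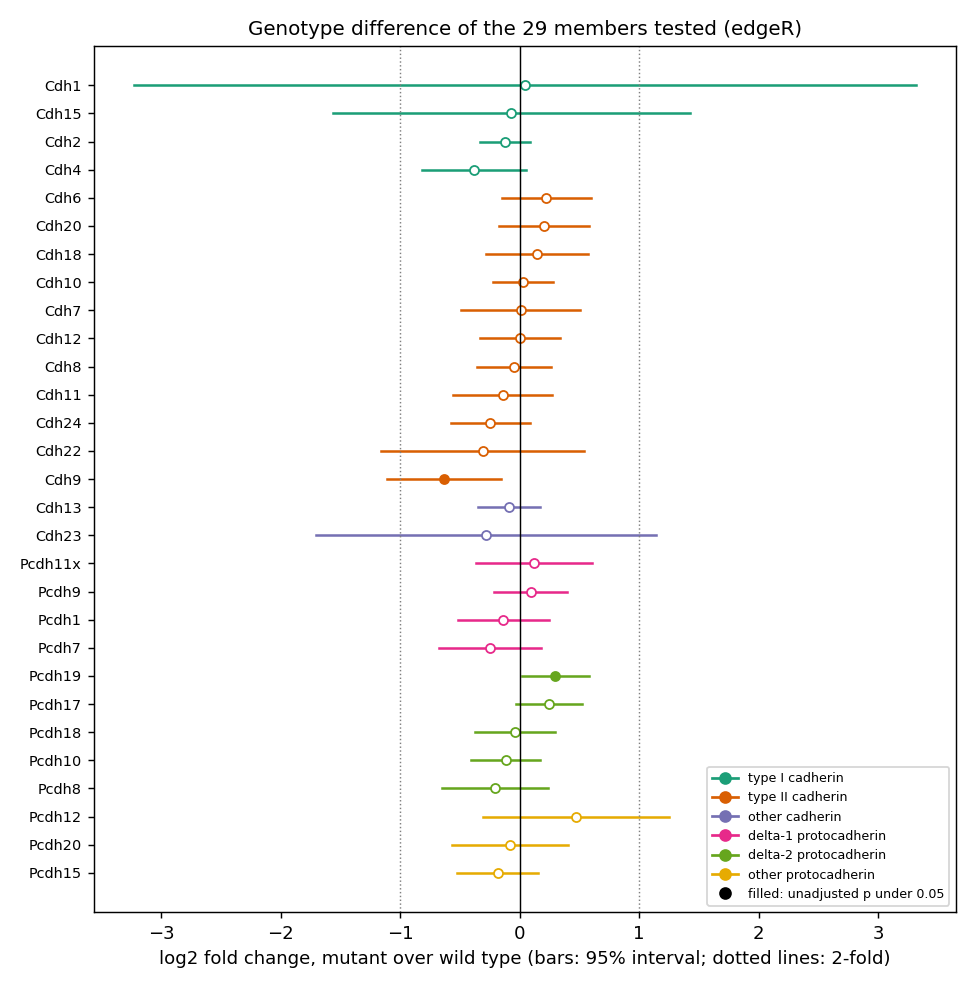
Log2 fold change of each member tested, mutant over wild type (x axis), with its 95% interval from edgeR as a bar, coloured by class, and dotted lines at 2-fold. The 2 filled points, Cdh9 at -0.63 and Pcdh19 at 0.30, have an unadjusted p under 0.05, and every other interval crosses 0.

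Among type I members, Cdh4 marks subsets of cortical and retinal neurons and can also bind N-cadherin. It stood at 155, 178 and 165 CPM (counts scaled to library size after TMM normalization) in the mutants, against 213, 158 and 279.8 CPM in the wild types. Wild-type replicates 1 and 3 lay above every mutant, and wild-type replicate 2 lay among them. The log2 fold change was -0.38 (SE 0.19, edgeR unadjusted p = 0.0763, adjusted p above 0.99). Leaving out wild-type replicate 3 gave -0.15, and leaving out wild-type replicate 2 gave -0.56 (edgeR unadjusted p = 0.302 and 0.00291). DESeq2 gave an unadjusted p of 0.0477. Cdh4 lies at chr2:179442431-179899373 on GRCm38.

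Cdh2, which carries the adherens junctions of radial glia and the adhesion of young synapses, had 375, 392 and 404 CPM in the mutants, against 464, 389.7 and 421 CPM in the wild types. Wild-type replicate 2 lay among the mutants and the other wild types above them. The log2 fold change was -0.12 (95% interval -0.33 to 0.08), which leaves 0.796-fold to 1.06-fold. Of all members tested Cdh2 varied least between libraries of a genotype, with a coefficient of variation of 6.94% in CPM. Cdh15, the cadherin of muscle, had 8 to 26 counts in the mutants and 9 to 42 in the wild types, and Cdh3, or P-cadherin, had 0 to 13 counts over all libraries and was not tested.

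In the type II class, Cdh9 gave the smallest p of all members. Cdh9 is known from hippocampal mossy fibre synapses and from retinal bipolar cells of the mouse. Its level was 14.1, 9.89 and 14.6 CPM in the mutants, against 16.0, 19.5 and 24.4 CPM in the wild types, and every mutant library lay below every wild-type library. The gap between the nearest libraries, mutant replicate 3 and wild-type replicate 1, was smaller than the spread within either genotype. The log2 fold change was -0.63 (SE 0.21, 95% interval -1.11 to -0.16), a level 0.644 of the wild type, with an edgeR unadjusted p of 0.0147 and an adjusted p above 0.99. The log2 fold change was -0.48 when mutant replicate 2 was left out and -0.47 when wild-type replicate 3 was (edgeR unadjusted p = 0.0518 and 0.0639). In 14 alternatives it ran from -0.77 to -0.47, with the smallest adjusted p at 0.574 by DESeq2. In the authors' deposited table the p-value of Cdh9 is 0.0157 and its adjusted p is 1.

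Markers of other neurons were read beside Cdh9. Of 9 corticothalamic markers, 1 passed the adjusted threshold by edgeR, Tle4 itself, and 7 had log2 fold changes below 0. Their summed level was 707 to 752 CPM in the mutants and 849.6 to 1095 CPM in the wild types, with no overlap. That sum includes Tle4, at 69.3 to 86.8 CPM in the mutants and 142 to 198 CPM in the wild types. Part of the gap is therefore that of the mutated gene itself. Of 15 striatal markers, 1 passed and 14 lay below 0, with a sum of 487 to 527 CPM in the mutants and 526 to 693 CPM in the wild types, where mutant replicate 1 lay above wild-type replicate 2. Counts below 0 in these and the other neuron lists stand beside 51.3% of all genes tested. Of 11 interneuron markers 0 passed and 9 lay below 0. Of 6 subplate markers 1 passed, lower in the mutant, and 4 lay below 0. Of 11 cortical neuron markers 1 passed, higher in the mutant, and 7 lay below 0. The sums of these lists overlapped between the genotypes. No marker of any of the lists was at 0 in any library. Their part in the Cdh9 difference was not tested.

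Cdh9 lies at chr15:16778101-16857094 on GRCm38, between Cdh6 and Cdh10 in a run of 5 type II genes that spans 10.4 Mb. Its neighbours in that run gave log2 fold changes above 0: 0.22 for Cdh6, 0.03 for Cdh10, 0.01 for Cdh12 and 0.15 for Cdh18, with unadjusted p by edgeR of 0.207 or more. Leaving out a library turned the sign of Cdh10 (lowest -0.05) and of Cdh12 (lowest -0.11). Cdh6, also called K-cadherin, has restricted domains in the embryonic forebrain. It stood at 46.5, 35.1 and 50.1 CPM in the mutants, against 41.2, 31.2 and 40.4 CPM in the wild types, and the genotypes overlapped. Cdh10 was among the steadiest members, at 64.3 to 77.3 CPM in the mutants and 63.4 to 72.4 CPM in the wild types (95% interval of the fold change 0.856 to 1.22).

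Cdh11, found in neurons and in mesenchyme, had the highest FPKM of the type II class. Its values were 96.9, 64.2 and 75.8 CPM in the mutants, against 68.6, 97.5 and 95.6 CPM in the wild types. Each genotype held both high and low libraries, and the log2 fold change was -0.14 (SE 0.18, edgeR unadjusted p = 0.455). Cdh24 had 29.1 to 34.5 CPM in the mutants and 31.4 to 43.7 CPM in the wild types, with a log2 fold change of -0.24 (SE 0.15, edgeR unadjusted p = 0.128). Cdh8, a cadherin of subsets of cortical and striatal neurons, had 85.3 to 108 CPM in the mutants and 85.0 to 115 CPM in the wild types. Of the remaining members Cdh20 gave 0.20, Cdh7 0.01 and Cdh22 -0.31, and Cdh19, a cadherin of peripheral glia, had 0 to 5 counts and was not tested. The median log2 fold change of the 11 type II members tested was 0.01, with 5 below 0.

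**Figure D3:**
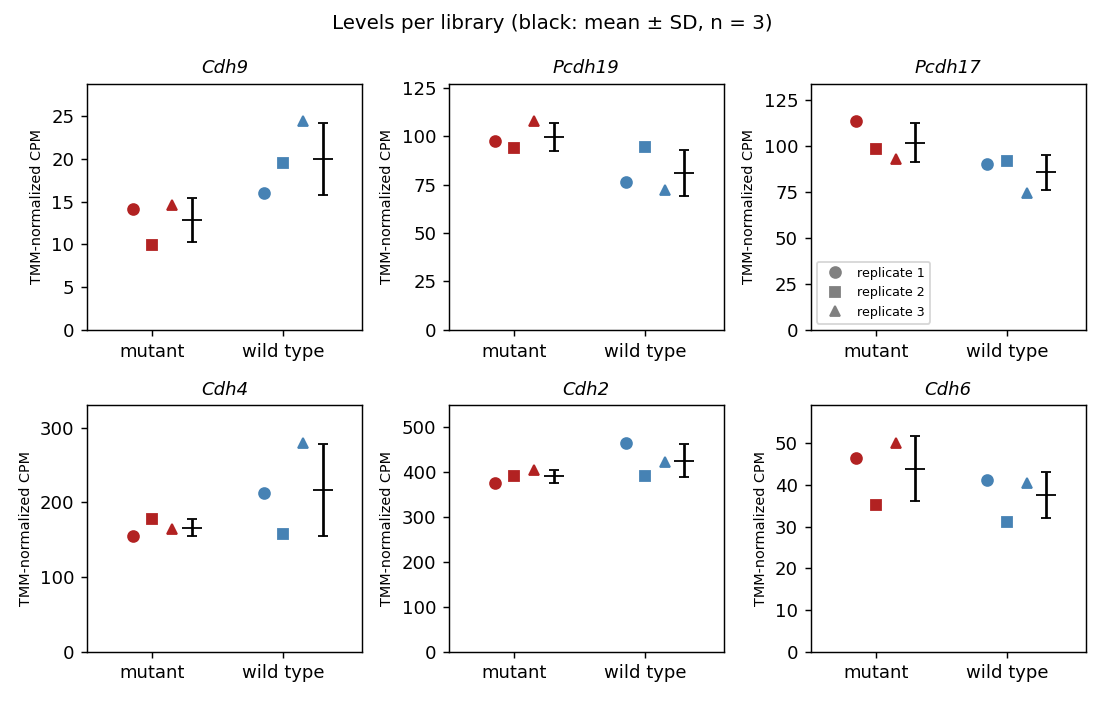
TMM-normalized CPM of 6 members in each library (y axes from 0), mutants left in red and wild types right in blue, a symbol per replicate and the mean ± SD in black. Mutant and wild-type libraries do not overlap for Cdh9 and Pcdh17, and overlap for Pcdh19, Cdh4, Cdh2 and Cdh6.

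Of the other cadherins, Cdh13, or T-cadherin, is also made outside neurons, in vessels. It had 165, 191 and 205 CPM in the mutants, against 223, 190.0 and 183 CPM in the wild types, and the genotypes overlapped (log2 fold change -0.09, SE 0.12, edgeR unadjusted p = 0.457). Cdh23, which forms the tip links of hair cells together with Pcdh15, had 10 to 52 counts in the mutants and 18 to 60 in the wild types. Overlapping Cdh23 on the opposite strand is 4632428N05Rik with 56 to 140 counts, and whether counting used the strand is not given in the sources used here, so the counts of Cdh23 are uncertain. Cdh17, an intestinal cadherin, and Cdh26 had 2 to 38 and 0 to 6 counts and were not tested.

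Several delta-2 protocadherins recruit the actin-regulating WAVE complex through their cytoplasmic tail and are known to steer axon growth and sorting. Pcdh17, which acts at synapses of cortex and basal ganglia in the mouse, had 114, 98.5 and 93.1 CPM in the mutants, against 90.3, 92.1 and 74.7 CPM in the wild types. In CPM every mutant library was above every wild-type library, by about 1 CPM at the nearest pair. In the deposited FPKM the genotypes overlapped, with mutant replicate 3 at 9.70 FPKM and wild-type replicate 2 at 9.98 FPKM. The log2 fold change was 0.25 (SE 0.12, 95% interval -0.03 to 0.52), with an edgeR unadjusted p of 0.0733 and an adjusted p above 0.99. The p-value of Pcdh17 deposited by the authors is 0.123. Pcdh17 lies at chr14:84443563-84537060 on GRCm38.

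Pcdh19, an X-linked gene whose mutation causes epilepsy in human females, had 97.4, 93.8 and 107.7 CPM in the mutants, against 76.2, 94.5 and 72.2 CPM in the wild types. Wild-type replicate 2 lay between mutant replicates 2 and 1, and the other wild types lay below all mutants. The log2 fold change was 0.30 (SE 0.13, 95% interval 0.02 to 0.58), with an edgeR unadjusted p of 0.0400 and an adjusted p above 0.99. The unadjusted p was 0.0633 with the replicate number as a block, 0.0915 with a meninges score as a covariate, and between 0.00639 and 0.138 when libraries were left out, at 0.0579, 0.138, 0.10 and 0.122 without mutant replicates 1 and 3 and wild-type replicates 1 and 3. The p-value of Pcdh19 deposited by the authors is 0.0656. Pcdh19 lies on chromosome X at 133582860 to 133688987, and the mutants carried Xist where the wild types nearly lacked it, so its difference cannot be told apart from one of sex. Pcdh11x, the other X-linked member, had 14.8 to 19.7 CPM in the mutants and 11.2 to 19.1 CPM in the wild types (log2 fold change 0.12, SE 0.22).

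Radial glia markers were read beside Pcdh17 and Pcdh19. By edgeR 0 of 10 passed the adjusted threshold and 2 had an unadjusted p under 0.05, both higher in the mutant, and 9 had log2 fold changes above 0, with a median of 0.24. Their sum was 1492 to 1750 CPM in the mutants and 1167 to 1532 CPM in the wild types, ranges that overlap, and 0 of the 10 were at 0 in any library. Radial glia were not alone in this direction. Above 0 also lay 8 of 11 meningeal, 6 of 10 endothelial, 3 of 5 intermediate progenitor, 3 of 3 choroid plexus and 4 of 4 erythroid markers tested. Of 7 microglia markers 1 did, and most markers of each neuron list given above lay below 0. Cdh2, a member of radial glia junctions, gave -0.12. The part of any of these lists in the values of Pcdh17 and Pcdh19 was not tested.

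Pcdh10, which guides striatal and thalamocortical axons, had 161, 119.9 and 142 CPM in the mutants, against 139.9, 149 and 171 CPM in the wild types. The genotypes overlapped, with a log2 fold change of -0.12 (SE 0.13, edgeR unadjusted p = 0.381). Pcdh8, also called arcadlin and induced by neuronal activity, was lowest in mutant replicate 1 at 40.6 CPM and stood at 63.5 and 58.4 CPM in the other mutants, against 49.0 to 70.6 CPM in the wild types. Pcdh18 had 24.8 to 30.1 CPM in the mutants and 24.9 to 32.3 CPM in the wild types.

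Delta-1 protocadherins have a tail that can bind protein phosphatase 1. Pcdh7 had 102, 92.8 and 106 CPM in the mutants, against 149, 84.7 and 124 CPM in the wild types, so that the wild types enclosed all mutants. Its log2 fold change of -0.25 (SE 0.19, edgeR unadjusted p = 0.217) became -0.44 when wild-type replicate 2 was left out (edgeR unadjusted p = 0.00647), -0.06 when wild-type replicate 1 was, and -0.05 with the meninges covariate. Pcdh1 had 74.5, 61.8 and 77.7 CPM in the mutants, against 68.8, 99.5 and 66.7 CPM in the wild types, and its log2 fold change of -0.14 became 0.08 with wild-type replicate 2 left out. Pcdh9 gave 0.09 (95% interval -0.22 to 0.40).

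Pcdh20 had 21.3, 13.8 and 15.5 CPM in the mutants, against 13.8, 19.3 and 20.5 CPM in the wild types, and its log2 fold change of -0.08 (SE 0.21) turned to 0.05 with mutant replicate 2 left out and to 0.03 with wild-type replicate 3 left out. Pcdh15 had 26.9, 26.6 and 31.3 CPM in the mutants, against 30.7, 27.5 and 38.2 CPM in the wild types (log2 fold change -0.18, SE 0.15). The genotypes overlapped for both genes.

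The 5 members with the largest coefficient of variation between libraries of a genotype were Cdh15, Cdh1, Cdh23, Cdh22 and Pcdh12, at 32.3% to 73.7% in CPM, and 2 of them are genes of non-neuronal cells of the brain. Cdh1, or E-cadherin, the cadherin of epithelia and of the arachnoid barrier of the meninges, had 97, 155 and 123 counts in the mutants, against 0, 265 and 121 counts in the wild types. The 0 in wild-type replicate 1 allows up to 0.153 CPM (3 counts, counting error alone), against 4.54 to 11.9 CPM in the other 5 libraries. In the same library 11 meningeal markers summed to 36.5 CPM, against 330 to 939.7 CPM in the other libraries, and Aldh1a2 was among them at 0. Cdh1 and these markers were both highest in wild-type replicate 2. The part of the meninges in the Cdh1 values was not tested. Cdh1 had a log2 fold change of 0.04 (95% interval -3.23 to 3.32), and its alternatives lay on both sides of 0. It was -0.54 with wild-type replicate 1 left out, 0.97 with wild-type replicate 2 left out, -0.11 with the meninges covariate, 0.80 with the replicate block and 2.24 by limma-voom.

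Pcdh12, a protocadherin of endothelium, had 5.47, 4.08 and 3.18 CPM in the mutants, against 1.78, 4.17 and 3.22 CPM in the wild types, lowest in wild-type replicate 1. Its log2 fold change of 0.47 (SE 0.35) was 0.20 without that library. The 10 endothelial markers, with Cdh5 among them, summed to 259 to 309 CPM in the mutants and 221 to 348 CPM in the wild types. Their lowest sum was also in wild-type replicate 1. Their highest was in wild-type replicate 2, whereas Pcdh12 was highest in mutant replicate 1, where that sum was 259 CPM. The 7 choroid plexus markers summed to 103 CPM in mutant replicate 3, against at most 8.21 CPM elsewhere, and Ttr alone gave 93.3 CPM of it. Folr1, Otx2 and Clic6 were also highest in that library, and Kl, Aqp1 and Prlr were not. Of the members tested, Cdh6, Cdh7, Cdh20 and Pcdh19 had their highest CPM in mutant replicate 3. How many of all genes did so was not counted, so no link to choroid plexus can be read from it. The part of choroid plexus in these members was not tested.

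**Figure D4:**
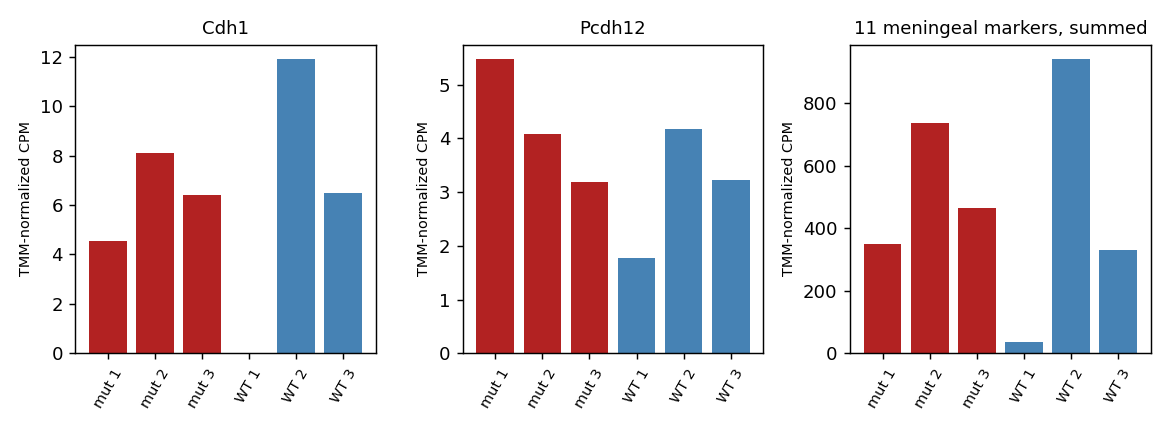
TMM-normalized CPM in each library (mut, mutant, red; WT, wild type, blue; numbers are replicates) of Cdh1, of Pcdh12 and of 11 meningeal markers summed. Wild-type replicate 1 has the lowest bar in each panel, with Cdh1 at 0 counts.

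Partners of these proteins were read from lists of catenins and actin linkers, the WAVE complex, processing proteases and nectins. By edgeR 0 of 17, 0 of 9, 0 of 11 and 0 of 4 tested genes passed the adjusted threshold, and at an unadjusted p under 0.05 there were 0, 0, 3 and 0, the 3 all lower in the mutant (1.73% of all genes tested were). Catenins and linkers had a median log2 fold change of 0.05, led by Jup, or plakoglobin (0.32, SE 0.16, edgeR unadjusted p = 0.0727). Nckap1 had the smallest p of the WAVE list (0.09, SE 0.08). The nectin list had a median of -0.06, and Pvrl1, which encodes nectin-1, had its smallest p (log2 fold change -0.08, SE 0.10).

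The 3 processing genes at that p were furin-like convertases, which cut the propeptide off classical cadherins and so expose the strand shown above. Furin stood at 47.85, 40.14 and 50.01 CPM in the mutants, against 62.43, 57.85 and 56.33 CPM in the wild types (log2 fold change -0.36, SE 0.12, edgeR unadjusted p = 0.0144). Pcsk5 stood at 10.5, 11.9 and 13.6 CPM in the mutants, against 17.0, 18.7 and 16.4 CPM in the wild types (log2 fold change -0.53, SE 0.16, edgeR unadjusted p = 0.00927). Pcsk6 stood at 8.09, 8.90 and 12.4 CPM in the mutants, against 13.6, 13.0 and 14.2 CPM in the wild types (log2 fold change -0.48, SE 0.20, edgeR unadjusted p = 0.0374). In each of the 3 every mutant library lay below every wild-type library, which adds nothing to the p they were chosen by, and the adjusted p was above 0.99 for each. Psenen, a subunit of gamma-secretase on the same list, was the other gene without overlap and lay higher in the mutants, at 2.35 to 2.81 CPM against 1.93 to 2.19 CPM in the wild types (log2 fold change 0.33, SE 0.26, edgeR unadjusted p = 0.234). Over 14 alternatives the unadjusted p stayed under 0.05 in 13 for Furin, 14 for Pcsk5 and 8 for Pcsk6. Pcsk5 lies 2.83 Mb from Tle4 on chromosome 19.

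Chromosome 8 held 6 members, of which 5 were tested, with log2 fold changes from -0.14 to 0.04. Chromosome 14 held 5, from -0.24 to 0.25. Apart from Cdh23, no member overlapped a gene of the table with more than 75 counts in a library, and Gm36944, which overlaps Cdh19, had 0 to 4.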

How the data were processed

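The authors deposited 1 table for the series, with a whole-number count and an FPKM per gene and library, a mean FPKM per genotype, and, from their own comparison, a p-value with its adjusted form, per the file headers. Alignment tools named in the submitters' processing notes are HISAT2 2.0.4 and StringTie, with edgeR and the build GRCm38.p4. How reads were counted, on which annotation and with which strand setting is not given in the sources used here. Library totals were 18617408 to 21632607 counts. The deposited FPKM served for levels between genes.

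Counts were fitted with edgeR 4.0.16 in R 4.3.3 over the whole table: filterByExpr, TMM scaling, a robust quasi-likelihood fit, a 2-sided test and Benjamini-Hochberg adjustment over 16274 genes at 0.05. The standard error (SE) was taken from the fold change and the F value, and 95% intervals use the fit's degrees of freedom. On simulated counts for 16274 genes with 200 changed, the test called 181 genes, 9 of them false, and recovered 73% of 2-fold and 99% of 4-fold changes. The changed genes were drawn above a minimum mean count, and the spread of each gene followed the trend over all genes. Recovery for members with fewer counts or a larger spread was not simulated. Alternatives were DESeq2 1.42.0 (size factors, Wald test), limma 3.58.1 voom, genes with 1 count or more, genes at a mean of 1 CPM or more, the replicate number as a block, leaving out each library, leaving out genes of X and Y, and a score of 11 meningeal markers (mean centred log2 CPM, prior count 2) as a covariate.

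The members, lists and tests were chosen with earlier results of these data known, so no list was tested. Values of every library are given for members with an unadjusted p under 0.05 or no overlap of the genotypes, and for the 2 of each class highest in FPKM. From each partner list the genes at an unadjusted p under 0.05, or else the gene with the smallest p, were named. Any other value per library was chosen after it was seen. Intervals on a count of 0 cover counting error alone.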

Additional observations from a re-analysis of the deposited data

How the results depend on the processing

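No alternative gave a member or a partner gene past the adjusted threshold (0 in each of 14 settings). The number of all genes past it was 18, and 58 by the DESeq2 Wald test, 9 with the replicate block and 8 to 19 when libraries were left out in turn. Members higher at an unadjusted p under 0.05 numbered 1, and 0 with the replicate block and with the meninges covariate. They numbered 0 to 2 when libraries were left out. Without X and Y genes the number was also 0, but there the 1 member, X-linked Pcdh19, was itself removed before the fit. Members lower at that p numbered 1, and 2 by the DESeq2 Wald test (Cdh4 and Cdh9), and 0 to 3 when libraries were left out. Members whose genotypes did not overlap numbered 2, and 2 to 7 with libraries left out, where fewer samples make overlap less likely.

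The median log2 fold change of members, -0.07, was -0.042 by limma-voom, -0.045 with the replicate block, -0.029 with the meninges covariate and -0.11 to -0.033 with libraries left out. Delta-2 protocadherins, at -0.04, gave -0.11 with the meninges covariate and -0.094 to 0.095 with libraries left out. Type I cadherins, at -0.10, gave -0.0025 by limma-voom, -0.026 with the replicate block and -0.40 to -0.093 with libraries left out. Cdh3 and Cdh17, not tested in the main fit, passed the filter in some fits with a library left out and count in the medians there. The -0.40, without wild-type replicate 1, includes Cdh3 at -0.98, so it does not cover the same members as the -0.10. Of the 29 members tested, 13 changed sign when 1 library was left out and 16 kept their sign under every alternative fitted, 9 of them below 0 and 7 above. Those that turned were Cdh1, Cdh7, Cdh8, Cdh10, Cdh12, Cdh15, Cdh22, Cdh23, Pcdh11x and Pcdh18, together with Pcdh1 (-0.24 to 0.077, above 0 without wild-type replicate 2), Cdh13 (-0.16 to 0.0014, above 0 without wild-type replicate 1) and Pcdh20 (-0.29 to 0.045, above 0 without mutant replicate 2 or wild-type replicate 3), and the cause was not tested. In none of the 404 fits of a member under an alternative was the adjusted p under 0.05.

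Same-numbered mutant and wild-type libraries had correlations of their deviations from the genotype means of -0.0627, 0.10 and -0.0185. Not every library correlated best with its own number. With so few libraries this cannot settle whether the replicate numbers pair the samples. With FPKM the median coefficient of variation between libraries of a genotype was 15.7% over the members tested, and with CPM 16.7%. Counts under 150 limit Cdh1, Cdh7, Cdh15, Cdh22, Cdh23 and Pcdh12.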
